A study of Drosophila melanogaster with 4 samples.

Results

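The Wnt gene cluster of Drosophila melanogaster chromosome arm 2L holds 4 genes for secreted Wnt ligands, Wnt4 (CG4698), wg (wingless, CG4889), Wnt6 (CG4969) and Wnt10 (CG4971). Binding of the chromatin protein Cmi was examined along a stretch of 140 kb around it, 2L:7250000-7390000 on FlyBase release 5. A peak belonged to the stretch when its midpoint lay in it. By this rule 2 peaks were found, out of 429 on 2L and 3110 in the whole list. The gene table used for names is of release 6, another build, so it gave only names and order, and neither peak was assigned to a gene.

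Chromatin came from embryos labelled 0 to 8 h of the strain Exd-GFP-13T. The genotype is w; PBac{y[+]-attP-3B}VK00033, and the transgene is the exd genomic coding region with GFP in place of its stop codon; exd encodes a cofactor of the Hox proteins. All groups share this background: 2 libraries were immunoprecipitated with an affinity-purified rabbit polyclonal antibody raised against full-length Cmi, and 2 were input DNA. The extraction text in the same labels describes another stock and embryos collected over 8 to 16 h, and the stage and strain fields were followed here. The embryos were whole, so the peaks are an average over all their cells. The 4 libraries are represented by 1 peak list, with a position and a score per peak and no value per library. Library depth is unknown and no spread between replicates could be given, so every comparison below describes peaks within this list and carries no p-value.

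Wnt proteins are secreted signals that bind Frizzled receptors with the coreceptor Arrow. In the canonical branch of the pathway this stabilises Armadillo, the fly beta-catenin, which enters the nucleus and acts on target genes with the TCF factor Pangolin. Wingless, the fly Wnt-1 protein, is the best known of these ligands. It is a segment polarity signal that keeps the borders of the embryonic segments and later patterns the wing and other appendages. Wnt4, Wnt6 and Wnt10 are its paralogs. Cmi (Cara Mitad, CG5591, listed as Lpt in the gene table) is a subunit of the Trithorax-related (TRR) methyltransferase complex, known for placing monomethyl marks on lysine 4 of histone H3 at enhancers.

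All 4 Wnt genes were found in the gene table, and on 2L they follow each other in the order Wnt4, wg, Wnt6 and Wnt10. Few other genes lie among them. CG31909 overlaps Wnt4, the long noncoding RNA gene lncRNA:CR45304 lies between wg and Wnt6, and the antisense RNA gene asRNA:CR44063 overlaps Wnt10. The cluster is bordered by CG13786 before Wnt4 and by ninaC, which encodes a myosin of photoreceptor cells, after Wnt10.

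The first Cmi peak lay at 2L:7306804-7307194. It was 391 bp wide and had a score of 38.47. Its midpoint was 57.0 kb from the start of the stretch and 83.0 kb from the end. The second peak lay at 2L:7340182-7340713, was 532 bp wide and had a score of 20.01. Its midpoint was 90.4 kb from the start of the stretch and 49.6 kb from the end. The first peak thus had the higher score, by 18.46, and the second was the wider one, by a factor of 1.36. The median score of the pair was 29.24 and the median width 461.5 bp. The other 427 peaks of 2L had a median score of 13.56 (quartiles 9.94 and 21.2) and were 418 bp wide at the median (quartiles 279 and 706.5 bp).

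The authors' deposited score has no scale in the file. Across the whole list 84 scores recurred in at least 5 peaks, and 79 of these values lay within 0.01 of the negative log10 of a Poisson probability for a whole number of reads over a background of 31.13 reads. No background more than 1 read away, between 5 and 120 reads, met more than 14 of them. Read in this way, the score of the first peak was that of a height of 129 reads, 4.14 times the background, and that of the second a height of 96 reads, 3.08 times the background. Both scores lay within 0.01 of a step of this series, as did 71.0% of the other peaks of 2L. The 2 scores recur in 5 and 27 peaks of the list, so they were among the 84 values used to find the background. Their match is therefore no separate check of it. These heights rest on that reading of the score and may be off by 1 read.

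**Figure D1:**
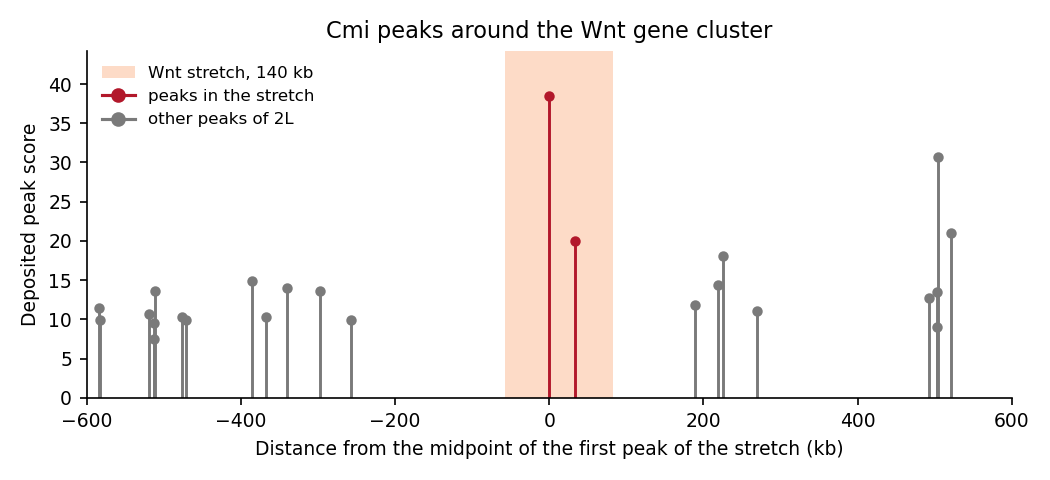
Deposited score (vertical axis) of each Cmi peak of 2L within 600 kb of the first peak of the Wnt stretch. The horizontal axis is the distance in kb from the midpoint of that first peak. Red points are the 2 peaks of the stretch, grey points the other peaks, and the shaded band is the stretch of 140 kb. The peaks of the stretch, at 38.47 and 20.01, stand alone between peaks of 9.94 and 11.89.

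Most of the Wnt stretch held no peak. The pair of peaks covered 923 bp. Before the first peak, 56.8 kb from 7250000 to 7306803 were empty, or 40.6% of the stretch. Between the peaks, 33.0 kb from 7307195 to 7340181 were empty, or 23.6%. After the second peak, the empty part ran for 49.3 kb from 7340714 to 7390000, or 35.2%. With unknown depth, an empty part shows that no peak was called there, not that Cmi was absent.

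The empty flanks went on beyond the stretch. The nearest peak on the left lay at 2L:7049332-7049723 (392 bp, score 9.94), 200.5 kb outside the stretch by its midpoint. The nearest on the right lay at 2L:7495499-7496179 (681 bp, score 11.89), 105.8 kb outside it. The gap from that left peak to the first peak of the Wnt stretch was 257.1 kb, the 19th longest of the 428 gaps of 2L. The gap from the second peak to the right neighbour was 154.8 kb, the 43rd longest. The median gap of 2L was 12.3 kb (quartiles 1.21 and 56.3 kb). The gap between the pair ranked lower: 35.3% of the gaps of 2L were as long or longer. Each gap counted once whatever its length, and short gaps are many. These ranks therefore do not give the share of 2L that lies in such gaps. Of all stretches of 140 kb along 2L, 25.3% held no peak, as given below.

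Counted from flanking peak to flanking peak, 445.8 kb of 2L held only these 2 peaks. Of the 426 spans of 2L that hold 2 peaks between flanking peaks, 25 (5.87%) were as long or longer, and the median was 107.1 kb. Each span counted once whatever its length, so this is not a share of the length of 2L. With 100 kb added on each side of the stretch the count was still 2, with 200 kb it was 6, and with 500 kb it was 22. The last count was 1.93 peaks per 100 kb, close to the mean of 2L, which was 2.71 peaks per 140 kb.

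Counted over all deposited peaks, the Wnt stretch held the median number for a stretch of its length on 2L. Stretches of 140 kb were slid along the arm in steps of 1 kb, from its first to its last peak. Of these 21738 stretches, 57.7% held 2 or more peaks, and the median was 2 peaks (quartiles 0 and 4). No peak was found in 25.3% of them, exactly 1 in 17.0% and exactly 2 in 16.9%. Neighbouring stretches overlap, so these shares are a description. In 155 stretches laid side by side without overlap, 90 (58.1%) held 2 or more peaks and 39 held none. When the count was limited to peaks above the median score of the list (15.75), both peaks of the Wnt stretch remained, and 26.6% of the sliding stretches held 2 or more. That limit is higher than the median of the peaks on 2L, 2R, 3L, 3R and X (13.99).

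**Figure D2:**
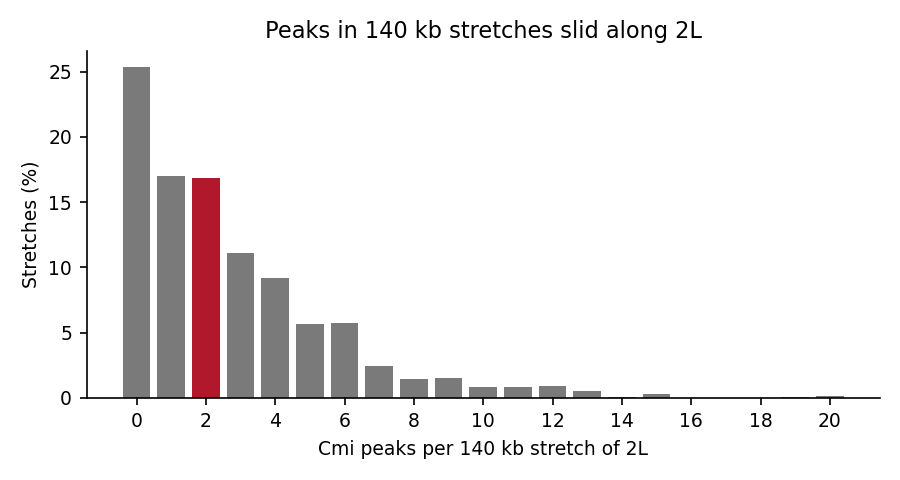
Share of the 21738 stretches of 140 kb slid along 2L (vertical axis, percent) with a given number of Cmi peaks (horizontal axis). The red bar marks 2 peaks, the number in the Wnt stretch, which is also the median; the counts run from 0 to 20.

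Over all deposited peaks, the covered length was close to the median as well, while the scores were higher. The 923 bp covered compare with a median of 967 bp over the sliding stretches, and 51.5% of them had as much or more. That share was 30.2% with only peaks above the median score of the list. It was 37.6% with the stretch shortened by 20 kb at each end and 62.3% with it lengthened by as much. The summed score was 58.48, against a median of 31, and 32.7% of the stretches reached it. With the same changes, in that order, 20.9%, 22.5% and 42.9% of the stretches reached it. The highest score, 38.47, was reached or passed in 16.1% of all stretches, and in 21.2% of the 3666 stretches that also held 2 peaks. The highest count was 20 peaks, held by 31 of the sliding stretches. The first of these along the arm, 2L:384046-524046, had 13437 bp covered and a highest score of 62.07. Its peaks had a median score of 11.565, below the scores of both peaks of the Wnt stretch, and a median width of 432 bp.

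The first peak ranked 35th by score among the 429 peaks of 2L, in a tie with 1 other, and the second ranked 119th. By width they ranked 234th and 160th. In the whole list the ranks by score were 447 and 1178 of 3110. Only 2661 of these 3110 peaks lie on 2L, 2R, 3L, 3R and X, and the others raise the scores of the list. The median score was 13.99 on these arms and 15.75 in the whole list. The score of 38.47 was shared by 5 peaks of the list, which ran from 391 to 1858 bp in width, and the first peak was the narrowest of them. The score of 20.01 was shared by 27 peaks.

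For its score the first peak was narrow. Of the 36 peaks of 2L with a score of 38.47 or more, it was the narrowest; the others ran up to 5398 bp, and the median of the 36 was 1391 bp. On the 5 large arms together, 235 peaks reached this score, and 1 of them, on 2R with 374 bp, was narrower. The rank changes just below this score. Among the 35 other peaks of 2L within 1.3 times its score, the median width was 1097 bp (quartiles 799 and 1516 bp) and 2 were narrower. These were 2L:6357033-6357380 (348 bp, score 36.64) and 2L:19887508-19887823 (316 bp, score 37.86). On the 5 large arms, 7 of the 258 other peaks within this range (2.71%) were narrower. The second peak lay within the usual range. Of 96 other peaks of 2L within 1.3 times its score, 38 were narrower, and their median width was 605 bp (quartiles 435.75 and 778.25 bp). Score and width are tied by the caller, and the range of 1.3 times was chosen after the widths had been seen.

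**Figure D3:**
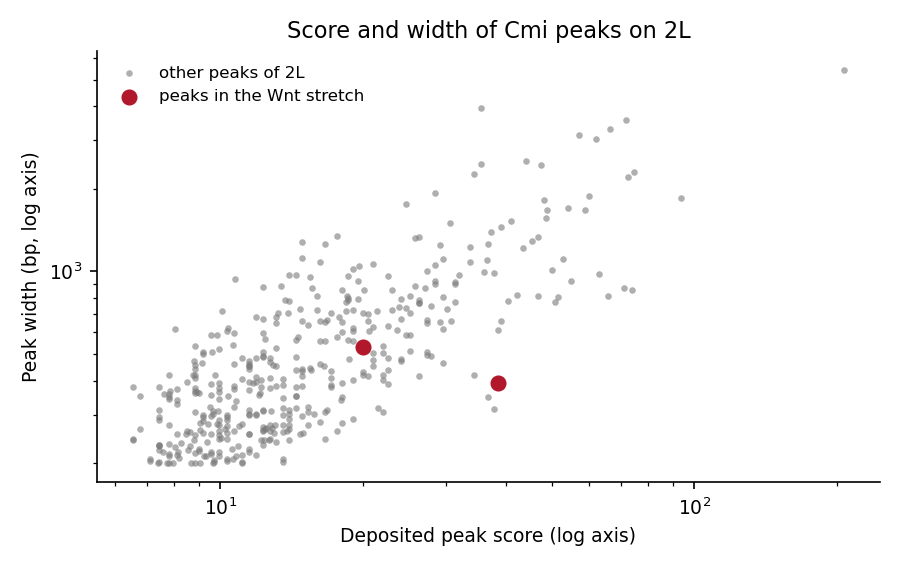
Width in bp (vertical log axis) against deposited score (horizontal log axis) for the peaks of 2L. Red points are the 2 peaks of the Wnt stretch and grey points the other 427; the red point at a score of 38.47 and 391 bp lies at the lower edge of the cloud, and the one at 20.01 and 532 bp within it.

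Both peaks stood alone. Neither had a neighbouring peak closer than 5 kb between midpoints (0 of 2, exact 95% interval 0 to 84.2%), while 60.4% of the other peaks of 2L did (258 of 427, exact 95% interval 55.6 to 65.1%). These intervals cover counting error of peaks only, and with 2 peaks the interval includes the share of the rest of 2L. They also treat peaks as independent, which neighbouring peaks are not. For the pair, 0 of 2 is a single distance counted for both peaks. The nearest peak to each was the other, at 33.4 kb, and 60 of the 429 peaks of 2L (14.0%) were as far from their neighbour or farther. Of the 36 peaks of 2L with at least the score of the first peak, 3 had their nearest neighbour at 33.4 kb or beyond. The first peak itself is among these 3. The median distance of the 36 was 2.32 kb, close to the 2.72 kb of the other 427 peaks of 2L. Among the 96 other peaks within 1.3 times the score of the second peak, 19 were as isolated.

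**Figure D4:**
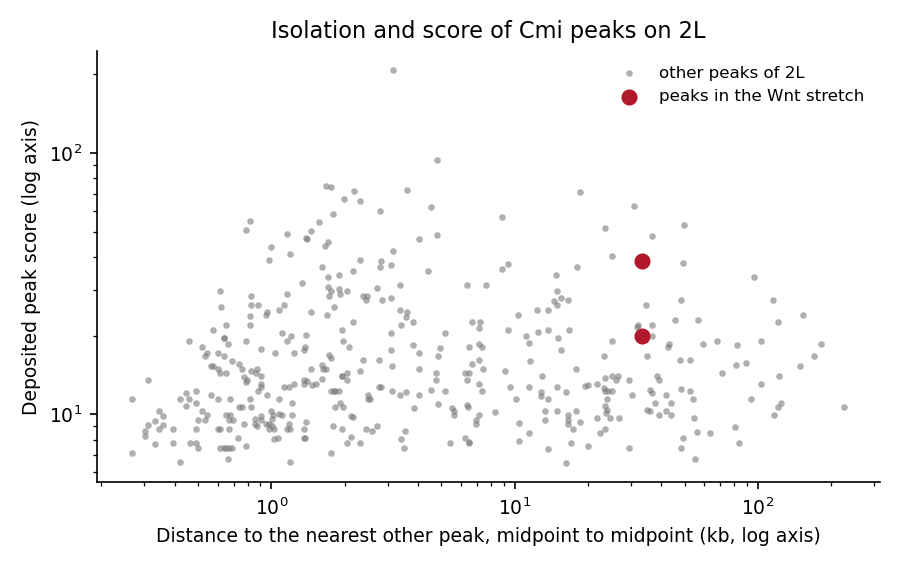
Deposited score (vertical log axis) against the distance in kb to the nearest other peak, midpoint to midpoint (horizontal log axis), for the peaks of 2L. The 2 peaks of the Wnt stretch (red) share a distance of 33.4 kb, to the right of most of the other 427 peaks (grey).

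Within 600 kb on either side of the first peak there were 22 peaks apart from the pair. Their scores ran from 7.44 to 30.71 with a median of 11.69, all below that of the first peak, and 2 of them reached the score of the second. The nearest peak with at least the score of the first peak was 2L:8082638-8085077 (score 47.48), 776.9 kb to the right, and the nearest such peak to the left was 2L:6078615-6079430 (score 65.72), 1228 kb away. For the second peak, leaving out the first, the nearest of at least equal score was 2L:7811423-7812080 (score 30.71), 471.3 kb to the right. To the left it was 2L:6480453-6481172 (score 21.39), 859.6 kb away. Peaks with at least the score of the first are few on 2L (36 of 429). How far such peaks usually lie from each other was not examined, so these distances do not set this part of 2L apart.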

How the data were processed

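Cmi ChIP-seq of embryos was represented by 1 deposited peak list. The submitters' processing notes name the build BDGP5 and the tools MACS2, BWA and CASAVA (1.7.0.2, 1.7.0.3), without their roles; for thresholds and for pooling of replicates, the sources used here state nothing. Per the file headers, positions are on FlyBase release 5 (other values per peak, the start and end, are 1-based) and the caller is MACS. The deposited score has no stated scale.

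Peaks were taken by midpoint with Python 3.11.15, numpy 2.4.6, pandas 2.3.3 and scipy 1.17.1, and plotted with matplotlib 3.10.9. The span of 2L ran from its first to its last peak. Gaps were measured between peak edges and neighbours between midpoints. Background heights were scanned from 5 to 120 reads in steps of 0.01. The scripts were tested on simulated data. The stretch, the genes and the comparisons were chosen with earlier results of these data known. Both peaks of the stretch are described; other peaks are named as flanks, as the nearest of equal score, as narrower at similar score or for comparison of isolation, the last 3 kinds chosen after their values were seen. The comparisons of width and isolation at similar score, and the side by side stretches, were also chosen after seeing the data.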

Additional observations from a re-analysis of the deposited data

How the results depend on the processing

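Of 64 alternatives computed, 56 stayed within the range set for no change (1.5 times for counts and lengths, 1 SD of the pair for medians, the exact 95% interval for shares). Above the upper quartile of the score (28.44) the stretch held only the first peak, with 391 bp covered and a summed score of 38.47. The medians went from 29.24 to 38.47 (score) and from 461.5 to 391 bp (width). They counted as unchanged, but losing 1 of 2 peaks cannot move a median beyond that SD. The share of stretches of 2L with as many peaks or more was 26.9% above this quartile (for 1 peak). It was 26.6% above the median score (15.75), where both peaks remained. Both limits are those of the whole list. On the 5 large arms alone they were 22.23 and 13.99. The share was 44.7% with the stretch shortened by 20 kb at each end and 67.8% with it lengthened by 20 kb. The shares for cover and summed score, given above, were not among the 64. The longest empty part was 36804 bp in the shortened stretch, by construction. Membership by overlap, joining of peaks within 1 kb, steps of 10 kb, stretches of 5 arms, side by side stretches and neighbour distances of 2 and 10 kb moved no result beyond its range. Many of the 56 outcomes were fixed in advance. Steps of 10 kb, 5 arms and side by side stretches left the Wnt stretch, and so its count, cover and summed score, untouched. With the nearest peak at 33.4 kb, neighbour distances of 2 and 10 kb could not change the result either. The share of peaks of similar score narrower than the first peak was 5.71% within 1.3 times its score, 9.09% within 1.2 times and 2.99% within 1.5 times; these ranges and the side by side stretches were chosen after seeing the data. No paired analysis was possible because the peak list carries no values per library, and for this reason no replicate could be left out. Library depth is unknown, which limits what an empty part can show.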

Other observations

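On 2L, 4 strong and isolated peaks were found when those with a score of at least 38.47 and no other peak within 30 kb were taken, a rule made after the values had been seen. The first peak of the Wnt stretch was one of them. The other 3 lay at 2L:66414-67394 (981 bp, score 62.8, nearest peak at 30.8 kb), 2L:3301868-3303686 (1819 bp, score 48.15, 36.6 kb) and 2L:9987968-9989074 (1107 bp, score 52.87, 49.8 kb). With 391 bp the peak of the Wnt stretch was the narrowest of the 4.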
